A study of Mus musculus with 25 samples.

Results

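Colon tissue of mice labelled Card9-/- after 7 days of dextran sulfate sodium (DSS) was compared with colon tissue of mice labelled Card9-/- before DSS. The Card9 probe goes against this label, as given below. The comparison rests on the 4 arrays labelled Card9-/- at day 7 and the 3 arrays labelled Card9-/- at day 0, which were chosen by their labels and make up 7 of the 25 arrays of the series. Each array held RNA from the colon of 1 mouse. The mice of both groups were female, 8 weeks old and on the C57BL/6J background, and both groups carry the same Card9-/- label. The day 7 mice had drunk 2% w/v DSS for 7 days and the day 0 mice had received none. The design text names 5 mice for the day 7 group, of which 4 are on these arrays, and the fifth mouse was not used here. Wild-type (WT) mice handled in the same way, 5 arrays at day 7 and 3 at day 0, enter below only where the response is set against that of WT.

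DSS is a sulfated polymer that injures the colon epithelium and lets bacteria reach the tissue below it, so that neutrophils and monocytes enter from the blood while stromal cells remodel the matrix. CARD9 is an adaptor protein of myeloid cells that carries signals from C-type lectin receptors, which bind fungal and bacterial sugars, to the transcription factor NF-κB. In the resting colon, absorptive cells take up short-chain fatty acids and detoxify compounds from the lumen, goblet cells secrete mucus, and stem cells at the crypt base renew the lining.

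Signals are given as log2 of the spot intensity minus the 75th percentile of the same array, so 0 is the level of a fairly bright spot. The lowest signal well above background lay between -5.048 and -3.78 on the day 7 arrays and between -5.105 and -4.08 on the day 0 arrays, and values below that have no order. A gene was called where the limma adjusted p was under 0.05. The Card9 probe itself read -0.53, -0.70, -0.62 and -0.48 on the day 7 arrays and -1.52, -1.36 and -0.72 on the day 0 arrays, a difference that was not called (0.62 ± 0.62 (SE), adjusted p = 0.579). These levels are above those of the WT arrays, which averaged -5.43 at day 7 and -6.06 at day 0, so the probe goes against the labels. Groups are therefore named as arrays labelled Card9-/-, and any direction between genotypes rests on the labels. Both WT averages lie below the lowest signal well above background on every WT array of those days, which ranged from -4.967 to -3.65. No source used here gives the stretch deleted in the knockout, and the reason for these levels was not tested.

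The tissue carried markers of colon epithelium on all 7 arrays. Hnf4a, a transcription factor of gut and liver epithelium, read 6.78 to 7.08 at day 7 and 7.49 to 7.53 at day 0, and the intestinal factor Cdx2 read 3.29 to 4.57 at day 7 and 4.81 to 5.81 at day 0. Both fell (log2 difference -0.54 ± 0.12 and -1.26 ± 0.31, limma adjusted p = 0.00358 and 0.00683), without overlap between the groups.

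Marker genes of gut position and of pancreas set single arrays apart. The 16 measured Hox genes of paralogue groups 3 to 8, which pattern the proximal part of the gut, averaged -2.10, -2.26, -2.23 and -2.05 on the day 7 arrays, against -0.44, -0.56 and -2.27 on the day 0 arrays. Day 0 replicate 3 thus matched the day 7 arrays, while day 0 replicates 1 and 2 stood higher. Hoxb13, a gene of the distal colon, read 5.65, 6.53, 7.15 and 5.91 at day 7 and 1.52, 3.24 and 6.95 at day 0. The day 0 group therefore differs within itself in genes of position along the colon, and every comparison below is given, where it matters, against day 0 replicate 3 and against day 0 replicates 1 and 2.

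The second set was of pancreatic enzymes. The 24 measured acinar genes averaged -3.82, 8.91, 9.19 and -3.12 on the day 7 arrays and -3.45, -3.63 and -2.59 on the day 0 arrays, so day 7 replicates 2 and 3 held pancreatic RNA at the level of abundant transcripts. Carboxypeptidase Cpa1 read 10.12 and 10.74 on those 2 arrays, against -6.21 and -4.54 on the other day 7 arrays. The islet gene Ins2 followed it, at 4.07 and 6.85 against -1.41 and -1.66. The limma test called 1 of the 24 acinar genes, Spink1, a trypsin inhibitor (1.86 ± 0.47, adjusted p = 0.00733). It read 7.68, 8.82, 9.51 and 8.36 at day 7 against 5.79, 6.47 and 7.94 at day 0, and the groups overlapped. Globin genes formed a further set. The 9 red blood cell genes averaged 0.25, 1.30, 2.89 and 1.51 at day 7 and -1.76, -2.63 and -2.01 at day 0, and 8 of them rose, 0 without day 0 replicates 1 and 2. Hba-a2, an alpha globin, read 6.54, 7.45, 9.76 and 8.29 at day 7 against 4.23, 3.34 and 3.82 at day 0. The part of these transcripts in the results below was not tested beyond the values without the arrays concerned.

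**Figure D1:**
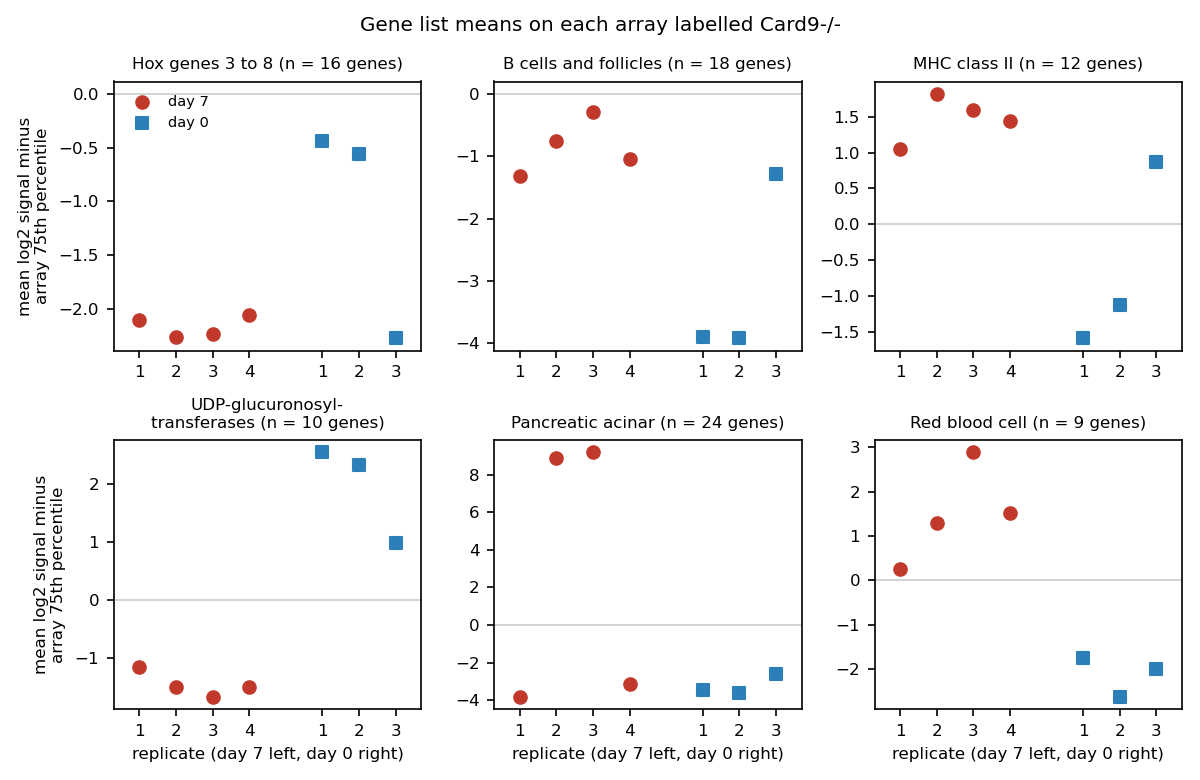
Mean log2 signal of 6 gene lists on each array labelled Card9-/-, with the 4 day 7 arrays left (circles) and the 3 day 0 arrays right (squares). Day 0 replicate 3 lies with the day 7 arrays for Hox genes 3 to 8 and close to them for B cell and MHC class II genes, acinar genes are high on day 7 replicates 2 and 3, and red blood cell genes are higher on all 4 day 7 arrays.

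Across 25467 genes tested, 5006 were called, or 19.7%. The higher ones numbered 1765 (6.93%), with a median log2 difference of 1.77, and the lower ones 3241 (12.7%), with a median of -0.61. Rises were thus fewer and larger: 330 genes rose and 59 fell by more than 8-fold in the fitted values. The 2 groups did not overlap for 6901 genes (27.1%). The median over all genes was -0.08, -0.17 against day 0 replicate 3 and -0.04 against day 0 replicates 1 and 2. In whole tissue, fewer cells of a type and less RNA per cell cannot be told apart.

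Most called genes stood on the same side of each day 0 array. Of the 1765 higher genes, 93.48% had every day 7 array above day 0 replicate 3 and 97.73% above day 0 replicates 1 and 2. For the 3241 lower genes these shares were 95.09% and 95.99%. The differences from replicate 3 were smaller for the rises, with a median of 1.45 against 1.88, and close to equal for the falls, with 0.57 against 0.62 below day 0. These shares describe arrays that made the calls and are not a second test.

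The number of calls differed with the arrays fitted. With 2 day 0 arrays left, 1226 genes were higher and 1999 lower without replicate 1. The counts were 1255 and 2049 without replicate 2, and 1620 and 2521 without replicate 3. Leaving out both replicates 1 and 2 changes the number and the make-up of the day 0 group together, and these cannot be told apart. Without day 0 replicates 1 and 2, 384 genes were higher (1.51%) and 449 lower (1.76%), a fit in which the lone day 0 array is assumed to vary like the other groups. Without day 7 replicates 2 and 3, 1276 were higher (5.01%) and 1961 lower (7.7%). With the mean of the Hox genes 3 to 8 as a covariate, 1388 were higher (5.45%) and 2366 lower (9.29%). Slide 2 held day 7 replicate 1 with day 0 replicates 2 and 3, and slide 4 held day 7 replicate 4 with day 0 replicate 1. Of the higher genes 1759 were higher within slide 2 and 1762 within slide 4, and of the lower genes 3221 and 3240 were lower. The genes were called on these same arrays, so the counts within slides are a description and no second test.

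**Figure D2:**
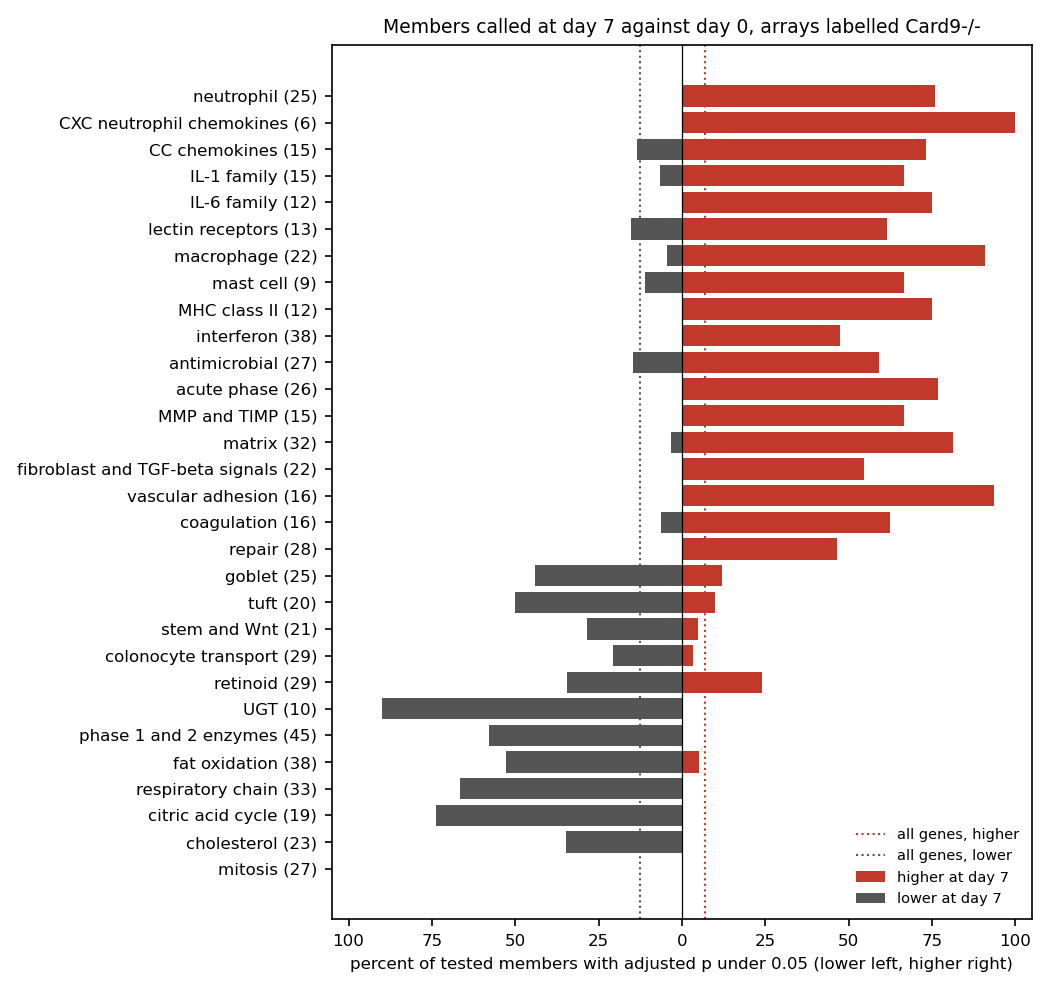
Percent of the tested members of 30 gene lists called higher (right) or lower (left) at day 7 than at day 0 in arrays labelled Card9-/-, with the number tested in brackets and dotted lines at the shares over all genes (6.93% higher, 12.7% lower). Lists of immune, acute phase and stromal genes extend to the right, and lists of detoxification and mitochondrial genes extend to the left.

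The calprotectin genes were among the largest rises. S100a9, one of the 2 subunits of this neutrophil protein that binds zinc and calcium, read 5.83, 6.58, 6.36 and 6.71 on the day 7 arrays and lay between -7.08 and -6.02, not well above background, on the day 0 arrays. The gap separated the groups completely and came to at least 2060-fold (adjusted p = 2.55e-08). S100a8, the other subunit, read 4.04, 4.80, 4.36 and 4.96 at day 7 and was not well above background at day 0, a rise of at least 581-fold (adjusted p = 1.39e-07). Of 25 tested neutrophil genes (27 listed), 19 rose and none fell, and 10 were still called without day 0 replicates 1 and 2. The filter on dim probes keeps a gene that is bright at day 7 alone, so counts over the tested genes of a list are descriptions. Here and below they are read against 6.93% higher and 12.7% lower over all genes. The list's median log2 difference was 3.50, or 2.41 with genes dim at day 0 set to their bound. Retnlg, a secreted protein of mouse neutrophils, rose at least 89.4-fold, and Il1r2, the decoy receptor for interleukin 1, at least 21.2-fold. Ltf, which encodes the iron-binding granule protein lactoferrin, read -0.29, 1.63, -0.33 and 0.48 at day 7 and between -6.35 and -5.20 at day 0. Its rise of at least 32.3-fold was thus uneven, with day 7 replicate 2 the highest. Fpr2, a receptor for bacterial formyl peptides, and Padi4, the enzyme that citrullinates histones in neutrophil traps, rose at least 14.9-fold and 4.9-fold.

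Chemokines that draw neutrophils moved with these genes. The 6 tested of 7 listed rose, and 5 were called without day 0 replicates 1 and 2, all but Ppbp. Cxcl5 read 2.46, 2.34, 1.58 and 2.84 at day 7 and -7.06, -6.69 and -5.26 at day 0, where no array had it well above background. Its rise was at least 123-fold (adjusted p = 7.5e-08). Cxcl1, Cxcl2 and Cxcl3, ligands of the neutrophil receptor CXCR2, rose at least 29-fold, 21.1-fold and 9.05-fold. Pf4, made by platelets and their precursors, was measurable on every array, with 1.84, 1.55, 1.90 and 1.95 at day 7 against -0.70, -0.78 and -0.54 at day 0. The spread within each group was small beside the difference of 2.49 ± 0.34 (adjusted p = 4.86e-05).

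Of the 5 promoters found for these genes, 3 held GGGA, any 4 bases and CC, a form of the site bound by NF-κB, in the 120 bases before the start, searched on both strands. It was in 0 of the 9 promoters found for CC chemokines, which are described next. No promoter was found for Ccl2 or Ccl4, and of the 9 genes Ccl6, Ccl9, Ccl25 and Ccl28 were not called higher. That motif stood in 9.68% of all promoters of this length, in 12.34% of those of tested genes, in 15.72% of those of higher genes and in 13.06% of those of lower genes. Neighbouring Cxcl1 and Cxcl2 are shown because they hold the same run of capitals, Cxcl1 at chr5:90891125-90891244 and Cxcl2 at chr5:90903779-90903898, both on the plus strand (RefSeq, GRCm38.p6), with matches in capitals. Matches on opposite strands overlap and appear as 1 run, which begins 71 bases before the start in Cxcl1 and 97 in Cxcl2. A match is a description of the letters and was not tested as a site.
Cxcl1: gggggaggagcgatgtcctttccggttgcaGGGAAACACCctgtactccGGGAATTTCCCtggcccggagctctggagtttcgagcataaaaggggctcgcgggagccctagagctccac
Cxcl2: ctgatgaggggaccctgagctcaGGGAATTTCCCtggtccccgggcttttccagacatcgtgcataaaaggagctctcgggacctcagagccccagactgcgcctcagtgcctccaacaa

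Chemokines for monocytes and other leukocytes mostly rose. Of 15 tested CC chemokines, 11 rose and 2 fell, against 6.93% higher and 12.7% lower over all genes. Ccl3 and Ccl4, which activated macrophages secrete, rose at least 53.1-fold and 88.7-fold. Ccl2, the main ligand of the monocyte receptor CCR2, read 1.72, 2.02, 1.60 and 1.62 at day 7 and -5.14, -4.82 and -3.82 at day 0, a log2 difference of 6.33 ± 0.85 (adjusted p = 4.8e-05). The day 7 arrays lay close together and far from the day 0 arrays. Ccl8, another ligand of this group, rose by 5.71 ± 0.67 on the log2 scale. Ccl19, which guides cells to lymphoid tissue, read -0.40, -0.19, -0.73 and -0.54 at day 7 against -6.41, -6.39 and -2.74 at day 0. Day 0 replicate 3 lay between, and the call was lost without the other day 0 arrays (adjusted p = 0.302). Ccl25, a chemokine for gut-homing lymphocytes, fell by 1.25 ± 0.25 and Ccl6 by 0.68 ± 0.22. Without day 0 replicates 1 and 2, 5 CC chemokines were higher and 0 lower.

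Most tested members of the interleukin 1 and interleukin 6 families rose. Of 15 tested interleukin 1 family genes 10 rose, 4 without day 0 replicates 1 and 2, and of 12 tested interleukin 6 family genes 9 rose, 4 without them. Il1b read 2.87, 3.73, 3.69 and 3.52 at day 7 and was not well above background at day 0 (-6.11, -5.62 and -4.67), a rise of at least 273-fold (adjusted p = 1.93e-06). Il1rl1, the receptor for interleukin 33, read 3.08, 1.63, 3.40 and 3.65 at day 7 against -4.43, -2.96 and -5.54 at day 0. Its ligand Il33, released by injured cells, read 0.83, 0.72, 0.31 and 1.69 at day 7 against -2.42, -2.69 and -2.96 at day 0, and rose by 3.58 ± 0.55 (adjusted p = 0.000162). Il18, an epithelial cytokine, rose by 1.80 ± 0.35, with 5.03 to 5.55 at day 7 against 2.65, 3.45 and 4.19 at day 0. Il1f9, a cytokine of barrier epithelium, rose at least 2.02-fold. Its relative Il1f8 was called lower, but its day 0 values were -3.10, -3.66 and -5.99 and it was not well above background on any day 7 array, so replicate 3 does not stand apart from day 7.

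In the interleukin 6 family, the cytokine Il11 of injured stroma read 2.30, 0.72, 2.51 and 1.91 at day 7 against -4.95, -4.43 and -6.20 at day 0. It was well above background on 1 of the 3 day 0 arrays, and the fitted difference was 7.05 ± 0.99 (adjusted p = 6.71e-05). Il6 and Osm rose at least 15.4-fold and 2.84-fold. Osmr, the receptor of oncostatin M, read 1.24, 1.33, 1.20 and 2.02 at day 7 against -2.10, -2.13 and -2.30 at day 0 (3.63 ± 0.38, adjusted p = 6.07e-06). Socs3, the feedback inhibitor of this pathway, rose by 3.91 ± 0.47 and Lifr by 1.98 ± 0.34. These 3 kept their calls without day 0 replicates 1 and 2 (adjusted p = 0.00262, 0.00416 and 0.0302).

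C-type lectin receptors send signals through CARD9 in myeloid cells. The counts of their genes are read against 6.93% higher and 12.7% lower over all genes. Of 13 tested genes of receptors and their signalling chain, 8 rose and 2 fell, and 6 and 0 without day 0 replicates 1 and 2. Clec4d, the receptor MCL, read 0.69, 1.37, 1.08 and 1.94 at day 7 and was not well above background at day 0, a rise of at least 60.3-fold (adjusted p = 1.55e-06). Its partner Clec4e, the receptor Mincle, rose at least 44.5-fold. Clec7a, which encodes the beta-glucan receptor dectin-1, read 1.58, 1.82, 1.44 and 2.00 at day 7 and -3.08, -2.66 and -2.23 at day 0, a difference of 4.37 ± 0.50 (adjusted p = 1.17e-05). The groups were several times further apart than the arrays within either. Clec4n, for dectin-2, rose by 3.74 ± 0.49, and Fcer1g, the signalling chain of these receptors, by 3.49 ± 0.41. Downstream, the kinase Syk rose by 0.67 ± 0.23, with 3.50 to 3.74 at day 7 against 2.45, 3.19 and 3.26 at day 0. The kinase Prkcd and the CARD9 partner Bcl10 fell by 0.61 ± 0.14 and 0.33 ± 0.11, and for Bcl10 the groups overlapped.

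Among 19 tested genes of tumour necrosis factor and NF-κB feedback, 6 rose and 1 fell, and 2 and 0 without day 0 replicates 1 and 2. Tnf read 0.13, 0.14, 0.10 and 0.34 at day 7 and -4.81, -2.91 and -4.73 at day 0, a difference of 4.33 ± 0.62 (adjusted p = 8.07e-05). Tnfaip2, which tumour necrosis factor induces, rose by 4.04 ± 0.54, while the adaptor Traf1 fell by 1.42 ± 0.25. Traf1 read 0.39 to 0.66 at day 7 against 2.32, 2.14 and 1.38 at day 0, where replicate 3 was nearest to day 7. Cytokines of T cells and colony-stimulating factors rose in 10 of 14 tested genes (21 listed), 0 of them without day 0 replicates 1 and 2. Ifng, the gene of interferon gamma, rose at least 8.86-fold (adjusted p = 0.0031, and 0.149 without those arrays). Il17a was above background on all 4 day 7 arrays (-4.18, -3.23, -3.07 and -3.19) and on none of the day 0 arrays, a rise of at least 2.34-fold, and Csf3, the growth factor of neutrophils, rose at least 1.39-fold. Il17a had an adjusted p of 0.768 without day 0 replicates 1 and 2.

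Macrophage and monocyte genes rose in 20 of 22 tested cases and fell in 1, with 12 and 0 without day 0 replicates 1 and 2. The list's median was 2.90, and 2.52 against day 0 replicate 3. Chil3, a secreted lectin of activated mouse macrophages, rose at least 71.1-fold. Cd68, a lysosomal protein of phagocytes, read 1.56, 1.54, 1.50 and 1.82 at day 7 against -1.68, -1.39 and -1.04 at day 0 (2.98 ± 0.39, adjusted p = 3.48e-05). The complement gene C1qb read 1.35 to 1.64 at day 7 and -1.22 to -0.76 at day 0. The monocyte receptor Ccr2 rose at least 8.3-fold and the activating Fc receptor Fcgr4 by 4.83 ± 0.57. Mertk, a receptor that resident macrophages use to clear dead cells, fell by 1.01 ± 0.20, with -0.15 to 0.14 at day 7 and 0.86 to 1.21 at day 0. Of 9 tested mast cell genes 6 rose and 1 fell, and 1 and 1 without day 0 replicates 1 and 2. The protease gene Mcpt4 read 0.85, 0.98, 0.46 and 1.50 at day 7 against -2.30, -3.48 and -1.21 at day 0 (3.28 ± 0.37, adjusted p = 1.01e-05). Kit, the receptor of mast cells and of the pacemaker cells of gut muscle, fell by 1.88 ± 0.24, and these were the 2 calls left without those arrays. Among eosinophil genes the receptor Il5ra rose by 4.38 ± 0.53 and Siglecf fell by 1.57 ± 0.38, the second with an adjusted p of 0.301 without those arrays.

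Lymphoid and antigen-presentation genes differed from the myeloid ones in where day 0 replicate 3 stood. MHC class II genes averaged 1.05, 1.82, 1.60 and 1.44 on the day 7 arrays and -1.59, -1.12 and 0.87 on the day 0 arrays. Of 12 tested genes 9 rose, but 0 did without day 0 replicates 1 and 2, and the median was 0.64 against replicate 3 and 3.11 against the other day 0 arrays. H2-Ab1, a class II chain, read 6.01, 6.47, 6.08 and 6.23 at day 7 against 2.67, 3.35 and 4.98 at day 0, so replicate 3 was intermediate. The invariant chain Cd74 followed the same order, at 4.82 to 5.50 against 0.96, 1.88 and 3.87. B cell and follicle genes went further. Ms4a1, the gene of CD20, read -0.21, 0.91, 1.02 and 0.10 at day 7 and -5.14, -5.60 and -0.05 at day 0, where replicate 3 lay inside the day 7 range. Of 18 such genes 8 rose, the medians were 0.36 against replicate 3 and 3.63 against replicates 1 and 2, and 0 were called without replicates 1 and 2. The part of lymphoid follicles in these values was not tested.

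T and natural killer cell genes rose in 10 of 24 cases, 2 without day 0 replicates 1 and 2. Those 2 were Il2ra, the high-affinity interleukin 2 receptor (at least 9.13-fold), and the co-stimulator Icos (at least 7.75-fold). Interferon-stimulated genes rose in 18 of 38 cases and 0 without day 0 replicates 1 and 2. Cxcl10, a chemokine for activated T cells, read 3.53, 4.35, 3.38 and 3.27 at day 7 against -3.35, -0.32 and 0.93 at day 0. Cxcl9 read 1.88, 2.40, 0.97 and 2.18 against -4.44, -3.23 and -0.57. For both, the 3 day 0 arrays spread over more than 3 log2 units, and the adjusted p of 0.00172 and 0.00355 became 0.239 and 0.414 without day 0 replicates 1 and 2. Nlrc5, the activator of MHC class I genes, rose by 3.33 ± 0.64 with the same order of day 0 arrays (-3.89, -2.88 and -0.84).

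**Figure D3:**
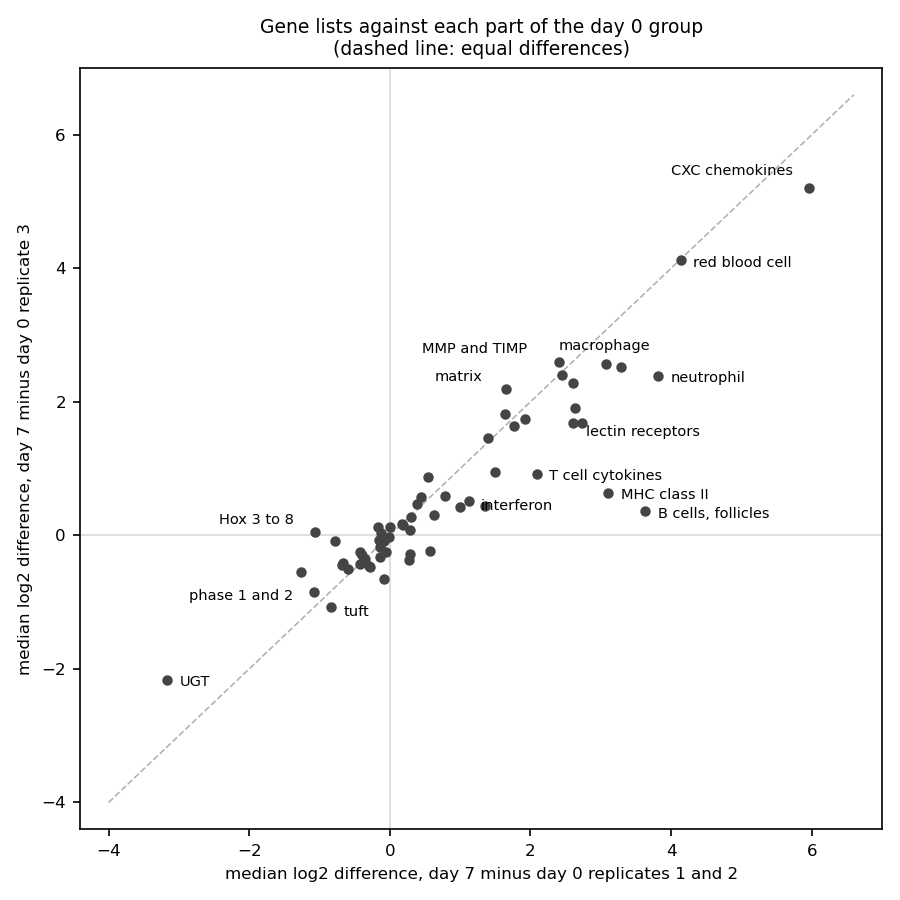
Median log2 difference of the day 7 arrays from day 0 replicate 3 (vertical) and from day 0 replicates 1 and 2 (horizontal) for 60 gene lists, arrays labelled Card9-/-. The red blood cell list lies next to the dashed line of equal differences and the matrix and MMP lists above it, while MHC class II genes (3.11 and 0.64) and B cell and follicle genes (3.63 and 0.36) lie far below it.

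Antimicrobial genes moved in both directions, with 6.93% higher and 12.7% lower over all genes. Of 27 tested, 16 rose and 4 fell, and 12 and 4 without day 0 replicates 1 and 2. Lcn2, lipocalin 2, which withholds bacterial siderophores, read 3.71, 2.75, 3.41 and 4.09 at day 7 against -1.73, -2.06 and -1.27 at day 0 (5.18 ± 0.60, adjusted p = 1.41e-05). The antiprotease Slpi rose by 5.31 ± 0.53 and Nos2, inducible nitric oxide synthase, by 4.41 ± 0.63. Reg3b and Reg3g, lectins that epithelium secretes against bacteria, were uneven within both groups. Reg3b read 8.22, 9.41, 6.39 and 8.35 at day 7, against 6.58, 2.89 and -2.89 at day 0, so day 0 replicate 1 overlapped day 7 replicate 3. Reg3g read 7.07, 7.36, 4.29 and 7.38 against 5.12, 1.78 and -1.98, with the same overlap. Their differences of 5.90 ± 1.65 and 4.88 ± 1.42 were called (adjusted p = 0.0148 and 0.0184), and within slide 2 and slide 4 Reg3b differed by 8.22 and 1.77.

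The 4 genes that fell were Ang4, Ang2, Ang and Itln1. Ang4, an antimicrobial ribonuclease, read 2.35, 1.60, 1.43 and 3.31 at day 7 and 7.80, 5.82 and 7.10 at day 0 (-4.73 ± 0.61, adjusted p = 3.48e-05). Its near-identical relative Ang2 fell by 4.22 ± 0.51, Ang fell too, and their probes may cross-hybridise. Itln1, a lectin for microbial sugars, read -0.83, -0.87, -0.19 and -0.21 at day 7 against 5.84, 2.19 and 2.93 at day 0. Day 0 replicate 1 was the highest of the 3, and all 4 genes were still called without it and replicate 2.

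Acute phase and complement genes rose in 20 of 26 cases, 15 without day 0 replicates 1 and 2, with medians of 2.56 against day 0 replicate 3 and 3.07 against replicates 1 and 2. Lrg1, a glycoprotein that inflamed tissue secretes, read 4.87, 5.43, 3.42 and 4.42 at day 7 against -1.20, -1.49 and -1.52 at day 0 (5.94 ± 0.45, adjusted p = 1.29e-07). The lipopolysaccharide-binding protein gene Lbp read 1.26, 3.22, 3.08 and 2.87 against -3.06, -3.34 and -2.24, and the protease inhibitor Serpina3n rose by 5.98 ± 0.71. Complement C3 was already bright at day 0, at 3.96, 3.98 and 3.85, and read 6.83, 6.10, 6.89 and 7.13 at day 7. The day 0 arrays lay close together for C3, unlike for the class II genes.

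**Figure D4:**
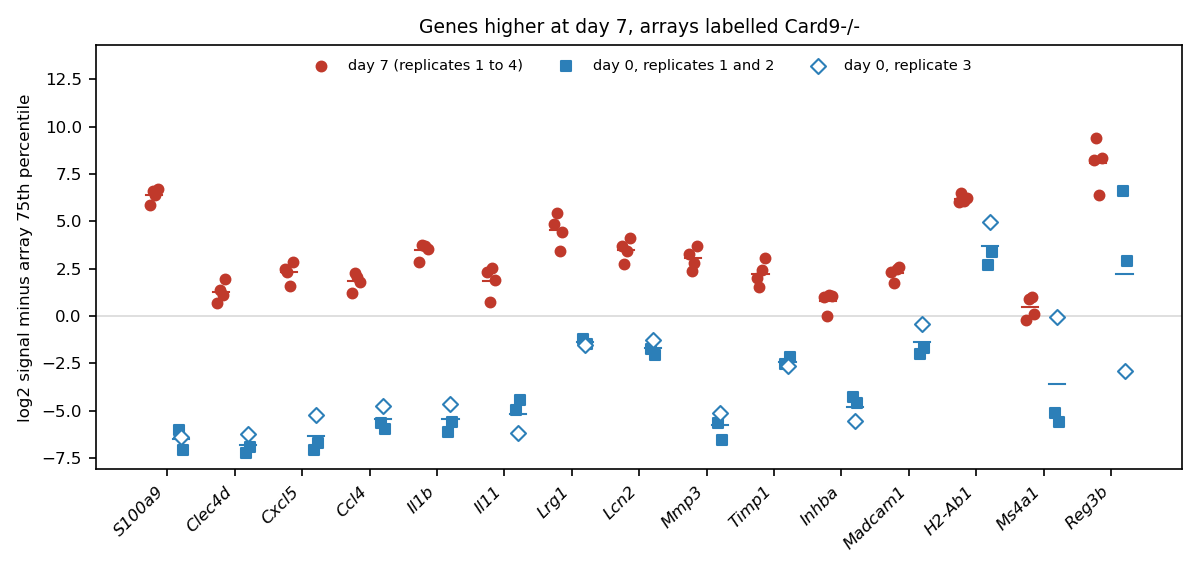
Log2 signal of 15 genes called higher at day 7 in arrays labelled Card9-/-, day 7 left (circles, 4 arrays) and day 0 right (squares for replicates 1 and 2, open diamond for replicate 3), with lines at the group means. S100a9, Lrg1, Lcn2 and Timp1 have groups far apart, while H2-Ab1, Ms4a1 and Reg3b spread over the day 0 arrays.

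Enzymes that cut the extracellular matrix were among the largest rises. Of 15 tested matrix metalloproteinases and their inhibitors 10 rose and 0 fell, 4 without day 0 replicates 1 and 2. Mmp3, stromelysin 1, read 3.28, 2.38, 2.79 and 3.70 at day 7 and -5.65, -6.56 and -5.13, not well above background, at day 0. That was at least 205-fold (adjusted p = 6.07e-06). Mmp10, stromelysin 2, rose at least 169-fold. The collagenase Mmp13 read 2.14, 1.41, 2.18 and 2.68 at day 7 and was not well above background on any day 0 array (adjusted p = 4.64e-05). The inhibitor Timp1 read 1.99, 1.51, 2.41 and 3.03 at day 7 against -2.55, -2.17 and -2.66 at day 0 (4.69 ± 0.64, adjusted p = 5.56e-05). Day 7 replicate 2 was the lowest of the 4 for Mmp3, Mmp10, Mmp13 and Timp1, and replicate 4 the highest.

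Those 3 proteinase genes lie on chromosome 9, and their promoters are shown because each holds the motif of the factor AP-1, TGANTCA, searched on both strands in the 120 bases before the start. With Mmp7, which was not called, 4 of the 12 list members with a promoter held it, against 3.4% of all promoters, 2.51% of those of tested genes, 5.15% of those of higher genes and 1.65% of those of lower genes. The match begins 46 bases before the start in Mmp3, 63 in Mmp10 and 35 in Mmp13 and is shown in capitals, from RefSeq (GRCm38.p6, plus strand). The stretches are chr9:7445702-7445821 for Mmp3, chr9:7502222-7502341 for Mmp10 and chr9:7272394-7272513 for Mmp13. Binding at these letters was not measured.
Mmp3: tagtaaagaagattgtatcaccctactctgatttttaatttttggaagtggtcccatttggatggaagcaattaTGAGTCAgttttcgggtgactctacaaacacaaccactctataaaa
Mmp10: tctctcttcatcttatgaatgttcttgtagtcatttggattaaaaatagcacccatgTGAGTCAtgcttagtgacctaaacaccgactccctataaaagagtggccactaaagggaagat
Mmp13: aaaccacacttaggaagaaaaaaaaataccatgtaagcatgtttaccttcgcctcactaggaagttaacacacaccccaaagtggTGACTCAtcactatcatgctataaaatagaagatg

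Matrix genes themselves rose in 26 of 32 cases and fell in 1, 8 and 1 without day 0 replicates 1 and 2. Here the difference was larger against day 0 replicate 3, with a median of 2.19, than against replicates 1 and 2, with 1.65. Adamts4, which cleaves proteoglycans, read 1.52, 0.74, 2.55 and 2.33 at day 7 against -2.99, -3.50 and -3.94 at day 0 (5.26 ± 0.76, adjusted p = 8.74e-05). Col18a1, a basement membrane collagen, rose by 2.96 ± 0.52, Tnc, tenascin C of healing tissue, by 2.42 ± 0.48 and Col5a2 by 1.88 ± 0.36. Col8a1 went the other way and fell by 2.79 ± 0.54, with -3.99, -5.06, -3.19 and -2.69 at day 7 and -1.88, -0.32 and -0.63 at day 0.

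Signals that fibroblasts send rose in 12 of 22 cases, 2 without day 0 replicates 1 and 2. Inhba, the activin A subunit, read 1.02, 0.00, 1.09 and 1.05 at day 7 against -4.30, -4.61 and -5.53 at day 0 (5.60 ± 0.81, adjusted p = 8.97e-05). Hgf, hepatocyte growth factor, rose at least 10.1-fold. The BMP antagonist Grem1 read 3.21, 1.60, 2.88 and 4.12 against -1.04, -0.52 and -0.30, and Tgfb1 rose by 1.65 ± 0.32. Grem1 again had day 7 replicate 2 lowest and replicate 4 highest, as the proteinases did.

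Most tested genes of blood vessels and clotting rose as well. Of 16 tested endothelial adhesion genes 15 rose, with medians of 1.74 against day 0 replicate 3 and 1.92 against replicates 1 and 2, although 2 were called without day 0 replicates 1 and 2. Madcam1, the address molecule for gut-homing lymphocytes, read 2.33, 1.76, 2.48 and 2.57 at day 7 against -2.01, -1.70 and -0.44 at day 0 (3.67 ± 0.57, adjusted p = 0.000158). Selp, P-selectin, rose by 4.92 ± 0.76, Ackr1, a chemokine transporter of venules, by 2.68 ± 0.42 and Vcam1 by 2.79 ± 0.51. The calls of Selp and Ackr1 held without those arrays (adjusted p = 0.0315 and 0.0396). Among 16 clotting and fibrinolysis genes 10 rose and 1 fell, and 3 and 0 without day 0 replicates 1 and 2. F13a1, the clot-stabilising factor XIII chain that macrophages make, rose by 3.68 ± 0.50. The plasminogen activator Plat rose by 2.82 ± 0.50. The protease inhibitor Tfpi2 fell by 2.35 ± 0.44.

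Of 28 hypoxia and glycolysis genes 10 rose and 0 fell, 4 without day 0 replicates 1 and 2. Egln3, an oxygen sensor that hypoxia induces, read 2.65, 2.26, 2.87 and 3.09 at day 7 against 0.79, 0.86 and 0.88 at day 0 (1.87 ± 0.22, adjusted p = 1.24e-05). Bnip3 and Pfkfb3, further targets of hypoxia-inducible factor, rose by 1.34 ± 0.21 and 2.35 ± 0.43. Enzymes of lipid mediators and small immune metabolites split. Acod1, which makes itaconate in macrophages, read 2.16, 3.12, 2.18 and 2.78 at day 7 against -6.54, -6.53 and -3.93 at day 0, and was well above background on 1 day 0 array. Ptgs2, the inducible prostaglandin synthase, rose by 4.07 ± 0.79, whereas Hpgd, which breaks prostaglandins down, fell by 1.66 ± 0.27 and Alox5 by 1.26 ± 0.43. Hpgd read 2.27 to 3.14 at day 7 and 4.18 to 4.49 at day 0.

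Epithelial repair genes rose in 13 of 28 cases, 2 without day 0 replicates 1 and 2. Ly6a, the gene of Sca-1, which marks regenerating crypts in mouse colon, read 7.04, 7.61, 7.46 and 7.28 at day 7 and 2.97, 3.91 and 5.09 at day 0 (3.36 ± 0.39, adjusted p = 1.3e-05). Day 0 replicate 3 was the nearest to day 7, without overlap. Anxa1 rose by 1.00 ± 0.18. Among 12 ligands of the epidermal growth factor receptor family, Nrg1 rose by 4.07 ± 0.63, Ereg by 3.46 ± 0.85 and Epgn at least 4.35-fold, while Egf was called lower. Nrg1 read 2.53, 1.41, 3.01 and 3.50 at day 7 against -1.33, -1.29 and -1.74 at day 0. Egf read -3.62, -1.57, -0.97 and -3.04 against -1.05, -0.93 and -0.99, so day 7 replicate 3 lay within its day 0 range, and the adjusted p was 0.0479. Krt36, a keratin of hair and colon epithelium, rose by 3.79 ± 0.54 and Krt17 fell by 3.14 ± 0.51. Most keratin genes were not called. Of 9 simple keratin genes 1 rose and 1 fell (median -0.16), as did 1 and 1 of 16 squamous epithelium genes (median 0.12).

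Stem cell and Wnt target genes fell in 6 of 21 cases and rose in 1, and 2 fell without day 0 replicates 1 and 2. Over all genes 12.7% were lower and 6.93% higher. The list's median log2 difference was -0.30, and -0.25 against day 0 replicate 3, where the median over all genes was -0.17. Axin2, a feedback target of Wnt signalling, read -1.64, -2.96, -3.65 and -2.16 at day 7 against -0.22, -0.28 and -0.13 at day 0 (-2.39 ± 0.41, adjusted p = 0.000423). Lgr5, the receptor that marks crypt base stem cells, read -0.81, -3.58, -5.82 and -4.37 at day 7 against 0.42, 0.20 and 0.04 at day 0. Day 7 replicate 1 was close to day 0, 2 of the 4 day 7 arrays were not well above background, and the day 0 arrays lay close together. Sox9 fell by 0.55 ± 0.13, and Lef1, which T cells also use, rose by 1.19 ± 0.38. The 27 mitotic genes averaged -1.08 on day 7 replicate 3, against 0.30 to 1.56 on the other day 7 arrays and 0.88 to 1.29 on the day 0 arrays.

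Goblet cell genes fell in 11 of 25 cases and rose in 3, and 3 fell and 0 rose without day 0 replicates 1 and 2. These counts and those of tuft cell genes are read against 12.7% lower and 6.93% higher over all genes. Muc2, the main secreted mucin, read 7.38, 7.64, 8.11 and 7.63 at day 7 against 8.78, 8.74 and 8.19 at day 0 (-0.88 ± 0.20, adjusted p = 0.00394). Day 0 replicate 3 was nearest to the highest day 7 array, and the adjusted p without the other day 0 arrays was 0.398. Atoh1, the switch for secretory fate, fell by 1.39 ± 0.21 and kept its call (adjusted p = 0.0204), and Spdef fell by 0.98 ± 0.25. The membrane mucins Muc13 and Muc1 rose by 0.77 ± 0.22 and 2.00 ± 0.55 (adjusted p = 0.356 and 0.439 without those arrays). Tuft cell genes fell in 10 of 20 cases and rose in 2, the falls among them Dclk1 and Rgs13 (-1.71 ± 0.40 and -2.59 ± 0.63), with a larger median against day 0 replicate 3 (-1.08) than against replicates 1 and 2 (-0.83) and 0 calls without replicates 1 and 2.

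Transporter and junction genes of absorptive cells were mostly not called. Of 29 transporter and surface genes 6 fell and 1 rose, and of 23 junction genes 5 fell and 1 rose, against 12.7% lower and 6.93% higher over all genes. Without day 0 replicates 1 and 2, 1 junction gene was called, as lower, and no transporter gene. Guca2a, the hormone guanylin, read 8.00, 7.41, 8.85 and 8.29 at day 7 against 9.52, 9.74 and 9.58 at day 0 (-1.48 ± 0.28, adjusted p = 0.00085). The chloride entry transporter Slc12a2 fell by 1.13 ± 0.23, the claudin Cldn15 by 1.71 ± 0.33 and occludin, Ocln, by 0.82 ± 0.19. Atp12a, the colonic proton pump, read 1.32, 3.92, 4.46 and 3.29 at day 7 against -5.14, -4.07 and 2.38 at day 0, so day 0 replicate 3 stood apart from the other day 0 arrays as it did for Hoxb13. Car1 was likewise high on day 0 replicates 1 and 2 alone, at 8.74 and 8.53 against 6.54 on replicate 3 and 5.41 to 6.82 at day 7.

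Many detoxification enzymes fell. Of 10 tested UDP-glucuronosyltransferase genes and their sugar-donor enzyme 9 fell, 1 without day 0 replicates 1 and 2, and of 45 phase 1 and phase 2 enzymes 26 fell, 5 without them. The first list averaged -1.66 to -1.14 on the day 7 arrays and 2.54, 2.32 and 0.98 on the day 0 arrays. Ugt2b5, which conjugates steroids and drugs, read -3.27, -5.13, -5.94 and -4.06 at day 7 against 2.59, 2.43 and 0.26 at day 0 (-6.36 ± 1.31, adjusted p = 0.00175). Day 0 replicate 3 was below the other day 0 arrays and above each day 7 array, and the adjusted p without replicates 1 and 2 was 0.189. Ugt2b35 read -2.93 to -1.83 at day 7 against 0.08, 0.19 and 0.46 at day 0. Its day 0 values were even, and it was still called without replicates 1 and 2 (adjusted p = 0.00785). Probes of the Ugt2b family may cross-hybridise.

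The phase 2 enzymes Sult1a1 and Gstm3 were even across day 0. Sult1a1, a phenol sulfotransferase, read 3.96, 4.28, 4.55 and 4.33 at day 7 and 6.64, 6.79 and 6.73 at day 0 (-2.44 ± 0.28, adjusted p = 1.17e-05), and Gstm3 fell by 2.27 ± 0.28. The cytochromes Cyp2c55 and Cyp4b1 were lower on day 0 replicate 3 than on replicates 1 and 2. Cyp2c55 read 2.27, -0.29, 2.76 and 2.52 at day 7 against 6.71, 6.64 and 4.15 at day 0, and Cyp4b1 read -3.65, -3.93, -2.46 and -2.30 at day 7 against 3.90, 2.90 and -1.19. Among 15 bile acid genes 5 fell, 0 without day 0 replicates 1 and 2. Over all genes 12.7% were lower. Slc51a, a subunit of the basolateral bile acid exporter, read -0.80, -2.59, -0.30 and -1.15 at day 7 and 6.15, 5.39 and 0.13 at day 0. Its difference was -5.10 ± 1.62 (adjusted p = 0.03, and 0.836 without those arrays), and replicate 3 lay just above the highest day 7 array. The vitamin D receptor gene Vdr, which also binds bile acids, fell by 1.12 ± 0.23 from even day 0 values.

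**Figure D5:**
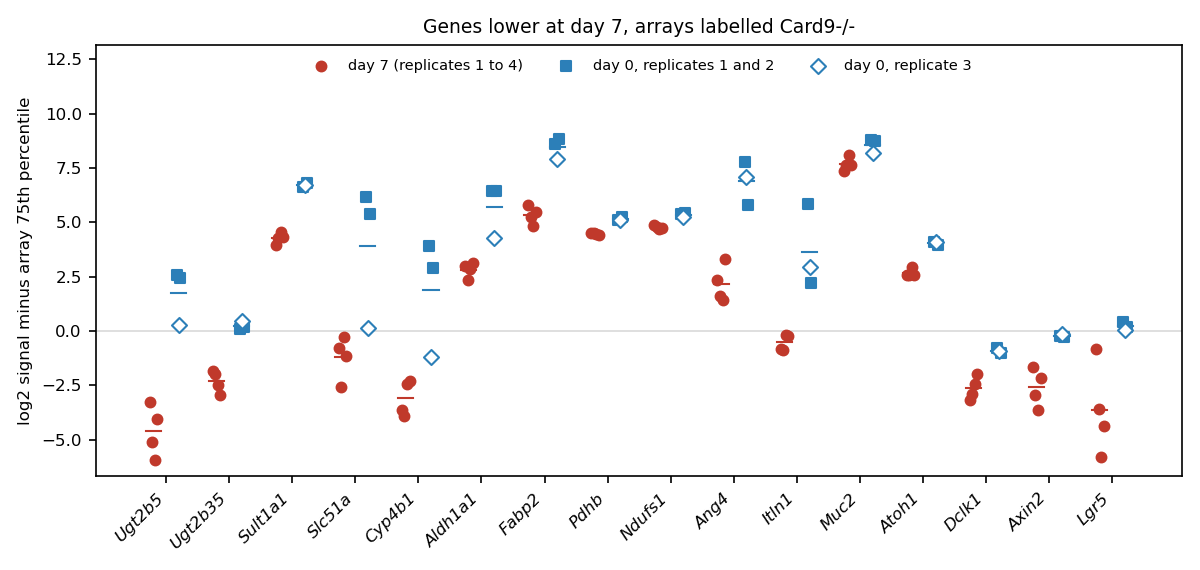
Log2 signal of 16 genes called lower at day 7 in arrays labelled Card9-/-, day 7 left (circles, 4 arrays) and day 0 right (squares for replicates 1 and 2, open diamond for replicate 3), with lines at the group means. Sult1a1, Pdhb, Atoh1 and Axin2 have even day 0 arrays, while Slc51a and Cyp4b1 have day 0 replicate 3 close to the day 7 arrays.

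Retinoid genes moved both ways. Of 29 tested, 7 rose and 10 fell, and 2 and 2 without day 0 replicates 1 and 2. Aldh1a3, an enzyme that makes retinoic acid, read 1.58, 1.46, 2.02 and 1.57 at day 7 against -2.24, -2.70 and -3.84 at day 0 (4.58 ± 0.55, adjusted p = 1.85e-05). Its relative Aldh1a1 read 3.00, 2.34, 2.84 and 3.11 at day 7 against 6.45, 6.45 and 4.26 at day 0, a fall of 2.90 ± 0.65. The retinol oxidising enzyme Rdh10 rose by 1.18 ± 0.24 and Rdh5 fell by 0.90 ± 0.14. Lrat, which stores retinol as esters, fell at least 10.5-fold, with -0.63, -0.89 and -1.41 at day 0 and no day 7 array well above background.

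Many mitochondrial genes were called lower. The counts in this paragraph are read against 12.7% lower and 6.93% higher over all genes. Of 33 respiratory chain genes 22 fell and 0 rose, and of 19 citric acid cycle genes 14 fell and 0 rose, although 3 and 3 were called without day 0 replicates 1 and 2. The medians were -0.43 and -0.50 against day 0 replicate 3 and -0.42 and -0.59 against replicates 1 and 2. Pdhb, a subunit of pyruvate dehydrogenase, read 4.51, 4.53, 4.47 and 4.40 at day 7 and 5.09, 5.23 and 5.12 at day 0 (-0.67 ± 0.09, adjusted p = 4.79e-05). Ndufs1 of complex I read 4.71 to 4.88 at day 7 against 5.24 to 5.45 at day 0, and Sdha of complex II read 4.93 to 4.98 against 5.46 to 5.53. For these 3 genes the separation is under 1 log2 unit, and the groups do not overlap. In fat oxidation 20 of 38 genes fell and 2 rose, 1 and 0 without day 0 replicates 1 and 2. Fabp2, the intestinal fatty acid carrier, read 5.82, 5.24, 4.84 and 5.49 at day 7 against 8.63, 8.83 and 7.92 at day 0 (-3.11 ± 0.48, adjusted p = 0.00016). Ppara, the regulator of this pathway, fell by 2.28 ± 0.40 and Acadm by 1.01 ± 0.19, while Acadl and the lipid droplet gene Plin2 rose by 0.67 ± 0.13 and 0.62 ± 0.21, the second with overlap. Cholesterol synthesis genes fell in 8 of 23 cases, with Tm7sf2 and Fdps (-0.58 ± 0.12 and -0.53 ± 0.12) kept without day 0 replicates 1 and 2. Of 22 genes of the urea cycle and polyamines 4 fell and 3 rose, with a median log2 difference of -0.07. Otc of the urea cycle fell by 4.54 ± 0.75, with day 7 replicate 3 not well above background (-6.05) and the other day 7 arrays at -2.22 to -1.51, against 1.44 to 1.61 at day 0.

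By its title the series concerns tryptophan metabolism and the aryl hydrocarbon receptor, a sensor of tryptophan products. Of 12 genes of that receptor and its targets 1 rose and 3 fell. In tryptophan uptake and breakdown, 2 of 18 genes rose and 4 fell. These counts are read against 6.93% higher and 12.7% lower over all genes. Without day 7 replicates 2 and 3, the first list had 0 higher and 3 lower, and the second 1 and 5. All genes then had 5.01% higher and 7.7% lower. The medians of the 2 lists were -0.08 and -0.24 against day 0 replicate 3, and -0.08 and 0.57 against replicates 1 and 2. The receptor gene Ahr read 1.08, 0.75, 0.87 and 1.36 at day 7 against 1.04, 1.01 and 1.15 at day 0, with overlap, and its target Cyp1a1 was well above background on 1 array of each group. Cyp1b1 rose at least 1.5-fold, whereas Nqo1 and Nfe2l2 of the oxidative stress response fell by 2.02 ± 0.38 and 0.81 ± 0.15. In tryptophan breakdown Kmo, the kynurenine hydroxylase, read -1.83, -1.49, -1.88 and -1.50 at day 7 against -4.47, -4.28 and -3.54 at day 0 (2.42 ± 0.37, adjusted p = 0.000143). Il4i1, an enzyme that turns tryptophan into ligands of the receptor, rose by 1.98 ± 0.51. Ido1, which makes kynurenine, read 0.67, 2.18, -0.96 and 1.12 at day 7 against -2.34, -1.40 and -0.97 at day 0 and was not called (adjusted p = 0.0548). Il22, a cytokine that the receptor supports in lymphoid cells, was above background on all 4 day 7 arrays and on 0 day 0 arrays, at least 3.12-fold brighter but not called (adjusted p = 0.0534).

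Most nerve and muscle genes were not called, and the calls are read against 6.93% higher and 12.7% lower over all genes. Tac1, the substance P precursor of enteric neurons, read 4.33, 6.23, 5.78 and 5.59 at day 7 against 2.87, 2.79 and 2.50 at day 0 (2.76 ± 0.37, adjusted p = 4.65e-05), and Vip rose by 1.54 ± 0.48. They were the 2 called of 20 enteric nervous system genes, and 1 was called without day 0 replicates 1 and 2. Actg2, smooth muscle actin, fell by 1.96 ± 0.48, 1 of 4 falls among 19 smooth muscle genes. None of the 4 was called without those arrays, and 1 smooth muscle gene was lower with the Hox covariate. The list averaged 0.34, 0.01, 0.88 and 1.32 on the day 7 arrays and 2.07, 1.79 and 1.25 on the day 0 arrays, so day 0 replicate 3 lay within the day 7 range.

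Set against the response of WT, 1 gene was called. In WT, 515 genes rose (2.02%) and 592 fell (2.32%) at day 7, and a direct test of the difference between the genotypes in the change called 1 of 25467 genes (0.00393%), with 2947 at an unadjusted p under 0.05 (11.6%). The number called after adjustment was 79 without day 0 replicate 3 labelled Card9-/-, and 0 without any 1 of the other day 0 and day 7 arrays labelled Card9-/-, except day 7 replicate 4 (1). It was also 0 with normexp background correction, with no filter, with the replicate block and with the Hox covariate, and 1 with quantile normalization. The counts of calls within each genotype are no test of a difference between them. The called gene was Slc16a6, a transporter of the monocarboxylate family. It read 1.71, 1.51, 1.44 and 1.13 at day 7 and 0.96, 0.99 and 0.93 at day 0 in arrays labelled Card9-/-, a rise of 0.49 ± 0.13 (adjusted p = 0.00895). In WT it averaged 0.94 ± 0.12 (SD, n = 5) at day 7 and 1.62 ± 0.12 (n = 3) at day 0, a fall of 0.68 (adjusted p = 0.00309). The difference between the genotypes was 1.17 ± 0.18 (adjusted p = 0.0389). Its relatives Slc16a9 and Slc16a3, the lactate exporter, moved in arrays labelled Card9-/- by -2.85 ± 0.39 and 2.02 ± 0.32, and neither was called between genotypes. For Hoxb13 and Slc51a, which follow the Hox pattern of the day 0 arrays, the fitted differences between genotypes were 2.86 and -5.14, not called (adjusted p = 0.329 and 0.377).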

How the data were processed

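RNA of mouse colon was measured on single-colour Agilent arrays. The deposited scanner files hold spot intensity values from Agilent Feature Extraction 10.7.3.1, background-subtracted and detrended within each array per the file headers. The authors' deposited series value table holds log2 values whose columns have nearly the same distribution. Its between-array method is not given in the files, and it served as an alternative. From the scanner files, log2 of the processed signal minus the 75th percentile over non-control spots of each array was taken. A probe was kept where 3 or more of the 25 arrays had it well above background, 36283 probes of 25467 genes, each gene by 1 probe. All 6 groups were fitted in 1 model with limma 3.58.1 in R 4.3.3, with Benjamini-Hochberg adjustment over all genes and a threshold of 0.05. Errors after ± are standard errors of log2 differences unless given as SD. Where no array of a group had a probe well above background, the fold is a bound, the bright group's mean against, per dim array, the higher of the lowest signal well above background and the probe's own signal. No spot on these arrays was saturated. Tables were made with pandas 2.3.3 in Python 3.11.15 and plots with matplotlib 3.10.9. Gene names came from accessions for 27656 probes, from symbols for 3708 and from the file alone for 24317. Probes of near-identical genes (Ugt2b, Ang, globin, Saa, Reg3 and Mcpt families) may cross-hybridise. The number of arrays limits the precision.

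The fit was tested on simulated data. Named genes were the 20 largest rises and 20 largest falls without overlap, up to 8 called members of each list by p, called members in the rarer direction, and any member of certain short lists. Mmp7 was named for its promoter after its values were seen. The members and the lists were chosen with earlier results of these data known. The replicate numbers were not taken as pairs of samples. Correlations of deviations were 0.235, -0.091 and 0.227 for the numbers that days 7 and 0 share. Deviations from the mean of so few arrays are tied to each other, so these values cannot decide whether the numbers pair. Each array is 1 mouse. Alternatives covered background correction, normalization, the filter, probes, slide, replicate number, the samples fitted, a Hox covariate and the arrays left out.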

Additional observations from a re-analysis of the deposited data

Results flagged for a closer look

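Of 179 named genes well above background on all 4 day 7 arrays labelled Card9-/-, and of 68 list means, 13 genes and 1 list had 1 array far from the others by Dixon's ratio, the gap to the nearest array over the whole range, taken at its 95% critical value. Chance flags about 1 in 20 groups. Replicate 4 was the high one for Osmr (2.02 against 1.20 to 1.33 on the others, ratio 0.836), Tnf (0.34 against 0.10 to 0.14, 0.851), Icos (-1.29 against -1.87 to -1.79, 0.86), Ang (2.05 against 1.50 to 1.52, 0.969) and Lef1 (-1.30 against -1.72 to -1.68, 0.911). Replicate 3 was the low one for Ccr2 (-2.34 against -1.33 to -1.15, 0.844) and Reg3g (4.29 against 7.07 to 7.38, 0.901). It was the high one for Atoh1 (2.95 against 2.57 to 2.59, 0.963) and for the mean of the citric acid cycle genes (4.56 against 4.42 to 4.44, 0.857). Replicate 2 was low for Inhba (0.938) and Cyp2c55 (-0.29 against 2.27 to 2.76, 0.838) and high for Cd74 (5.50 against 4.82 to 4.93, 0.831). Replicate 1 was low for Socs3 (3.95 against 4.90 to 4.95, 0.947) and Il17a (-4.18 against -3.23 to -3.07, 0.857). Replicates 2 and 3 are the arrays with pancreatic transcripts, and their part in these values was not tested.

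Slc16a6 rose in arrays labelled Card9-/- and fell in WT, and these opposite changes differed by 1.17 on the log2 scale. It was the 1 gene called in the direct limma test between the genotypes (adjusted p = 0.0389). The number called was 0, 1 or 79 under other settings, as given with the processing. It was 1 with quantile normalization and without day 7 replicate 4.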

How the results depend on the processing

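Of 203 named genes, 196 were called. Normexp, quantile normalization, no filter, single probes or a slide block kept direction and call for 192 to 199 of them. The number was 169 with the 7 arrays alone, 173 with the Hox covariate and 172 without day 7 replicates 2 and 3. Many of these genes were chosen by size or p in the main fit, which favours keeping the call. Leaving out 1 replicate gave 1226 to 1936 higher genes and 1999 to 3566 lower ones, fewest lower without day 0 replicate 1 (1999) and replicate 2 (2049). Without day 0 replicates 1 and 2 the counts were 384 and 449, and 106 named genes kept their call. This leaves 1 day 0 array. Leaving out day 7 replicates 2 and 3 gave 1961 lower genes, and both omissions, chosen after seeing the data, 195 and 237. Fitting the 7 arrays alone gave 1142 lower genes. Members of any list were 348 higher and 205 lower. They numbered 115 and 35 without day 0 replicates 1 and 2, 72 and 20 with both omissions, and 114 lower with the 7 arrays alone. The causes were not tested.

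The replicate block gave 1787 higher and 3094 lower genes and 342 and 192 list members. It removed the call of 5 named genes and added 1. The numbers were not taken as pairs, since each array is 1 mouse.

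The 1 gene called between genotypes became 0 with normexp, with no filter, with the replicate block and with the Hox covariate. The number stayed at 1 with quantile normalization. It became 0 to 79 with 1 replicate left out, the 79 without day 0 replicate 3. Directions turned for Il1f8 (0.12) and Hoxb13 (-0.64) without day 0 replicates 1 and 2. With both omissions they turned for Hoxb13 (-1.17), Ms4a1 (-4.7e-05), Cd79b (-0.13) and Atp12a (-0.08). Dclk1 turned in the deposited value table (0.49). None of these was then called. The median over all genes was -0.081, and 0.021 with normexp. Signal near background limits the folds of dim genes to bounds.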
